A study of Mus musculus with 18 samples.

Results

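A set of 9 genes known from immature, progenitor-like or dedifferentiated beta cells was followed by symbol through RNA-seq count tables of mouse islets, and all 9 were found once among the 53801 mouse genes listed. They are Aldh1a3, Cd81, Gata6, Mycl, Myc, Hes1, Neurog3, Pax4 and Sox4. The rule that picked them matched symbols alone, but the set was chosen with earlier results of these data known. The islets, small organs of hormone cells within the pancreas, came from mice 5 weeks old on normal chow. The mutant mice were heterozygous for MafA-S64F, written S64F/+, which changes 1 amino acid of the beta-cell transcription factor MafA, and the others were wild type (WT). The groups held 4 male S64F/+, 4 male WT, 5 female S64F/+ and 5 female WT libraries, 18 in all. Whole islets were used, so each library mixes beta cells with other islet cells, and nothing in the labels says whether a library came from 1 mouse or a pool. The p-values below therefore measure only the spread between these libraries.

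Mature beta cells are thought to keep their identity by holding progenitor and alternative programmes off. During pancreas formation Notch signalling keeps progenitors uncommitted through the repressor Hes1, and Neurog3 starts the endocrine programme once that repression is lifted. In diabetic mice, beta cells can lose insulin and other mature products and regain early features, a state for which Aldh1a3 is a widely used marker. MafA appears late in beta-cell maturation, and its loss in mice gives beta cells with poor insulin secretion.

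Library totals ran from 19317971 to 108659014 counts. Levels are counts-per-million (CPM) on library sizes scaled by the trimmed mean of M values, with the SD over libraries. Log2 fold changes are S64F/+ over WT with their SE, and a gene was called at an adjusted p under 0.05 in edgeR's quasi-likelihood test over 18364 genes. Mafa itself averaged 197 ± 52.3 CPM in male S64F/+ and 905 ± 80.8 CPM in male WT islets (n = 4 each), and 160 ± 49.8 CPM in female S64F/+ and 639 ± 117 CPM in female WT islets (n = 5 each). A gene count sums both alleles, so this does not check the genotype labels. Summed CPM of 17 mature beta-cell genes was between 129000 and 311000 in every library. That of 7 alpha-cell genes was between 34100 and 83000, and 10 acinar genes, from the exocrine pancreas, summed to between 2790 and 42900. The mature beta-cell sum was 129000 to 143000 CPM in male S64F/+ and 216000 to 294000 CPM in male WT libraries, with ranges apart. In females it was 134000 to 246000 CPM in S64F/+ and 170000 to 311000 CPM in WT libraries, which overlapped.

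Per length, the 9 genes spanned several orders of level. The authors' FPKM values, averaged over the 18 libraries, were highest for Cd81 at 15.5 ± 5.3 FPKM, then Sox4 at 11.7 ± 2.72, Gata6 at 7.86 ± 2.7 and Hes1 at 4.69 ± 1.27 FPKM. Neurog3 averaged 2.08 ± 0.651 FPKM, Myc 0.919 ± 0.279, Aldh1a3 0.363 ± 0.494 and Mycl 0.175 ± 0.0696 FPKM. Each neighbouring pair in that order had overlapping ranges over the libraries, apart from Mycl, whose lowest value was 0.0837 FPKM, and Pax4, whose highest was 0.00816 FPKM. Aldh1a3 had an SD larger than its own mean, and so did Pax4. Aldh1a3 values ran from 0.0412 to 1.85 FPKM. Pax4 alone did not pass the filter on low counts, which left 8 tested.

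In males, 5 of the 8 tested genes rose in S64F/+ islets and none fell. They were Aldh1a3, Cd81, Gata6, Mycl and Hes1, and the S64F/+ and WT libraries did not overlap for any of the 5. Among all 18364 genes, 15.4% were called higher and 12.3% lower in that comparison. In females, Cd81, Gata6 and Mycl rose and none fell, against 10.2% of all genes called higher and 11% called lower. The ranges were apart for Cd81 and Gata6 in females, and those of Mycl overlapped. No share of all genes with ranges apart is given here, so these separations have no background beside them. The median log2 fold change of the 8 genes was 0.74 in males and 0.66 in females, beside -0.03 and 0.02 for all genes. In these bulk samples, more cells of a type and more RNA per cell cannot be told apart.

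**Figure D1:**
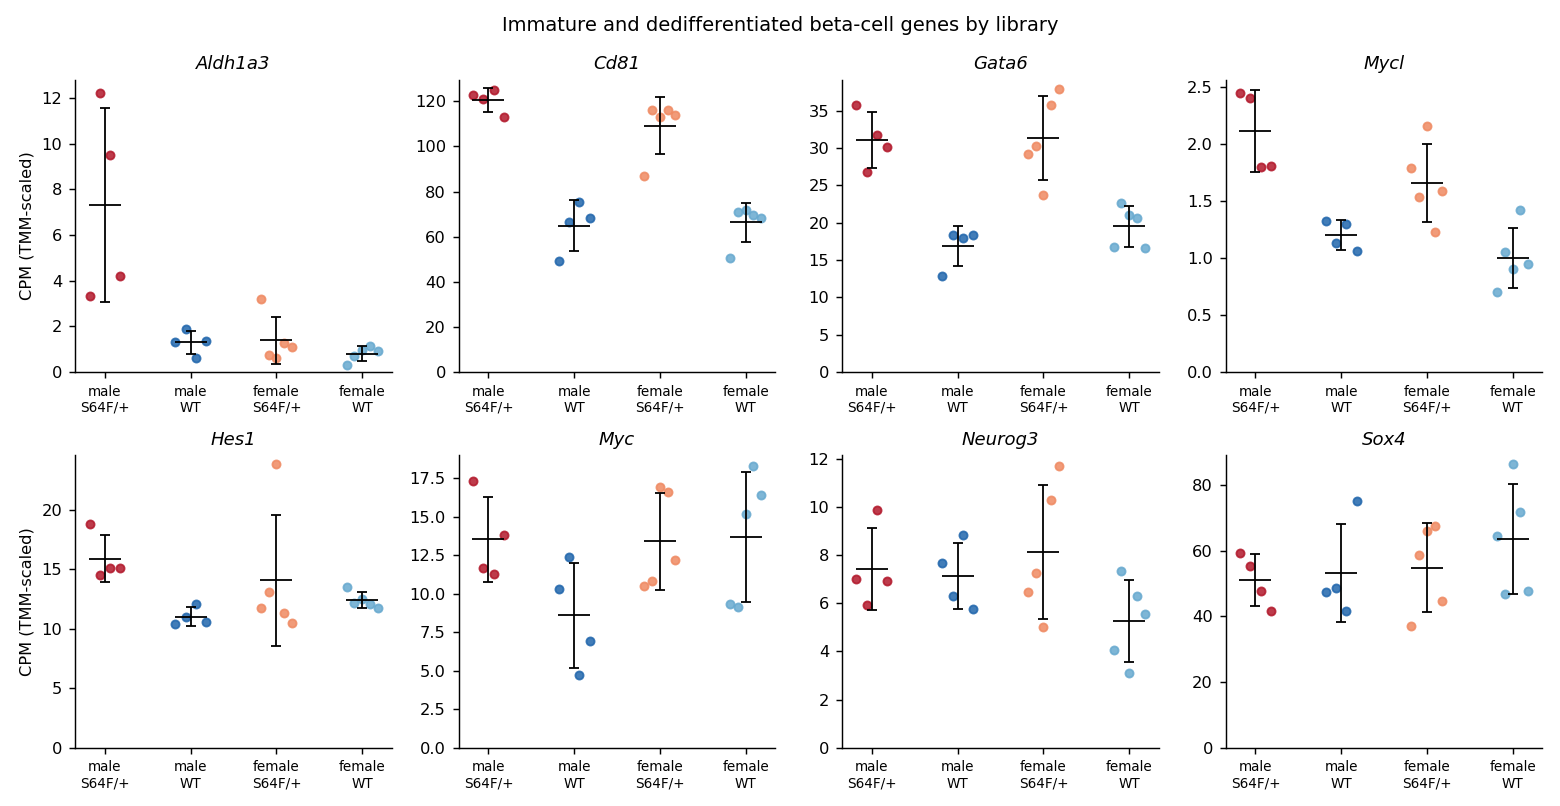
CPM of the 8 tested genes in each library (points), with the group mean and SD (black), for male S64F/+, male WT, female S64F/+ and female WT islets. Cd81 and Gata6 are higher in every S64F/+ library than in any WT library of the same sex, and Aldh1a3 reaches 12.2 CPM in a male S64F/+ library.

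Aldh1a3, which oxidises retinaldehyde to retinoic acid, showed the largest male log2 fold change of the 8 tested genes. Aldh1a3 (ENSMUSG00000015134, GRCm38 chromosome 7, 66390890 to 66427517, minus strand) was at 3.31, 12.2, 9.51 and 4.2 CPM in the male S64F/+ libraries and at 1.33, 1.88, 0.632 and 1.37 CPM in the male WT libraries. The lowest male S64F/+ library was thus above the highest male WT library, and the S64F/+ libraries differed widely among themselves. The log2 fold change was 2.48 ± 0.54 (edgeR adjusted p 0.00248). In females it was at 3.19, 0.749, 0.623, 1.25 and 1.1 CPM in S64F/+ and at 0.297, 0.693, 0.985, 1.14 and 0.921 CPM in WT libraries, and the groups overlapped. The female log2 fold change was 0.84 ± 0.48 (edgeR adjusted p 0.238), or 0.27 without female S64F/+ 1, which was the only female library above 1.25 CPM.

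The male effect on Aldh1a3 exceeded the female one by 1.64 ± 0.72 on the log2 scale, with a 95% interval of 0.13 to 3.15, and did not pass over all genes (edgeR adjusted p 0.17). Without female S64F/+ 1 the difference was 2.2 and passed (edgeR adjusted p 0.0345). Compared directly, male S64F/+ islets averaged 7.31 ± 4.26 CPM and female S64F/+ islets 1.38 ± 1.04 CPM, a log2 difference of 2.37 ± 0.49 (edgeR adjusted p 0.00618), with ranges apart. Among all genes, 8% were called higher and 8.12% lower in male than in female S64F/+ islets. Male WT islets averaged 1.3 ± 0.511 CPM and female WT islets 0.807 ± 0.326 CPM, which overlapped (log2 difference 0.73 ± 0.52, edgeR adjusted p 0.484).

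**Figure D2:**
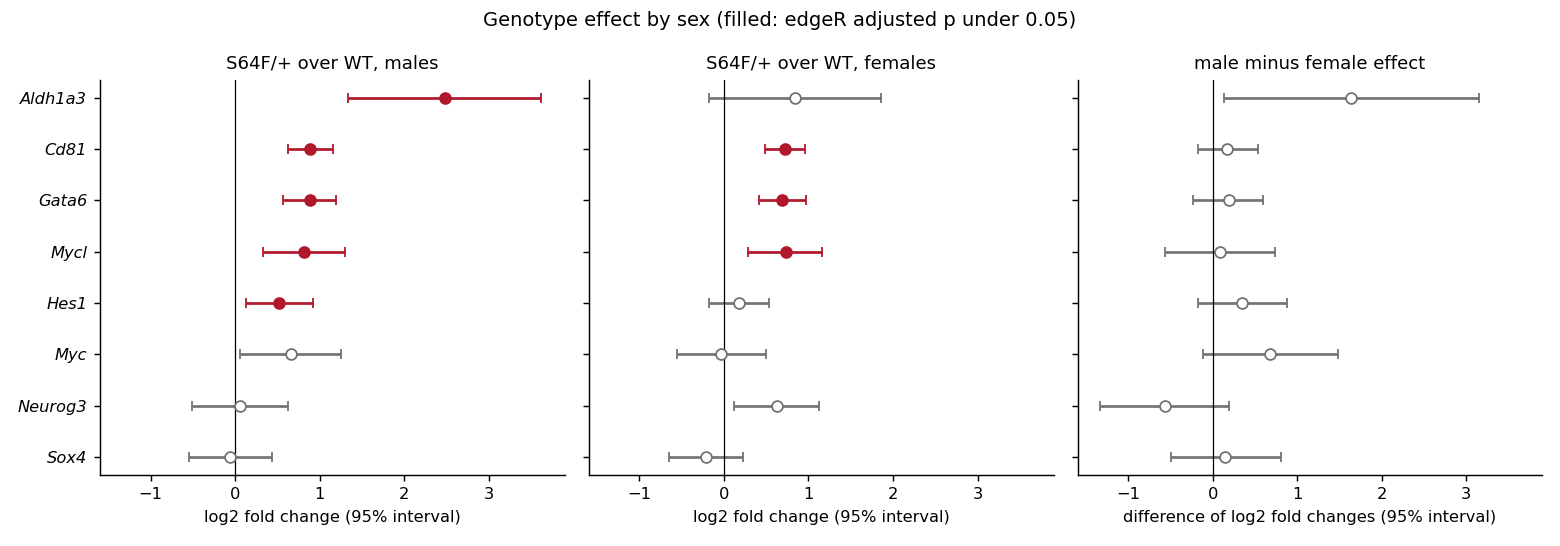
Log2 fold change of S64F/+ over WT in males (left) and females (middle), and the male minus the female effect (right), with 95% intervals; filled points were called. Aldh1a3 has the largest male effect, 2.48, and the intervals of Cd81, Gata6 and Mycl lie above 0 in both sexes.

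Genes that make, carry and sense retinoic acid were called more often higher than lower. Of 17 tested members of a list of 23 such genes, 8 rose and 1 fell in males, and 6 rose and 1 fell in females, with medians of 0.81 and 0.62. For this and the later lists, the shares of all genes were 15.4% higher and 12.3% lower in males. In females they were 10.2% and 11%. Some called genes were low, such as Rxrg at 0.83 ± 0.158 CPM in male and Lrat at 1.2 ± 1.47 CPM in female S64F/+ islets. Aldh1a2, a second retinaldehyde dehydrogenase, averaged 4.22 ± 1.67 CPM in male S64F/+ and 0.545 ± 0.074 CPM in male WT islets (log2 fold change 2.95 ± 0.51, edgeR adjusted p 0.000316), and 0.774 ± 0.412 CPM in female S64F/+ and 0.44 ± 0.256 CPM in female WT islets. Aldh1a1, the third such enzyme, also rose in males (1.84 ± 0.51, edgeR adjusted p 0.0129), and its groups overlapped. Dhrs3, which turns retinaldehyde back to retinol, rose in both sexes (1.42 ± 0.24 in males, 0.62 ± 0.21 in females).

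The difference between the sexes passed for 2 of the 17 retinoid genes, 1 in each direction, with a median of 0.56. In that contrast 2.87% of all genes were called higher and 1.6% lower, with a median of 0.01. Rbp4, the plasma retinol carrier and also a delta-cell marker, rose by 0.53 ± 0.12 in males and 1.15 ± 0.11 in females, and the male minus female difference of -0.62 ± 0.17 passed (edgeR adjusted p 0.0442). Rdh10, which makes retinaldehyde, had a log2 fold change of 0.23 ± 0.11 in males (edgeR adjusted p 0.127) and rose by 0.71 ± 0.10 in females, and the difference of -0.47 ± 0.15 did not pass (edgeR adjusted p 0.0671). Rdh10 also passed in males with library-size scaling (0.46, edgeR adjusted p 0.00381) and without male WT 4 (0.32). Rara, a retinoic acid receptor, fell by 0.91 ± 0.12 in females and had -0.27 ± 0.13 in males (edgeR adjusted p 0.14), a difference of 0.64 ± 0.18 between the sexes (edgeR adjusted p 0.0478).

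Cd81, a tetraspanin of the cell surface used to tell immature from mature beta cells, rose in both sexes. Cd81 (ENSMUSG00000037706, GRCm38 chromosome 7, 143052739 to 143067934, plus strand) was at 123, 121, 125 and 113 CPM in male S64F/+ and at 49.1, 66.4, 75.6 and 68.5 CPM in male WT libraries. In females it was at 86.7, 116, 113, 116 and 114 CPM in S64F/+ and at 50.7, 70.9, 71.9, 69.7 and 68.3 CPM in WT libraries. No library of either S64F/+ group reached down to the WT range, and replicate 1 was the lowest in 3 of the 4 groups. The log2 fold change was 0.89 ± 0.13 in males (edgeR adjusted p 4.83e-05) and 0.72 ± 0.11 in females (edgeR adjusted p 0.000168), and the difference between the sexes was 0.17 with a 95% interval of -0.18 to 0.53. R74862, on the other strand, overlaps Cd81 by 948 bases. It averaged 4.17 CPM and had log2 fold changes of -0.04 in males and 0.08 in females. The strand setting of the counts is not stated, so reads in this overlap cannot be told apart.

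Other tetraspanins and their partners moved in both directions. Of 17 tested, 6 rose and 4 fell in males and 7 rose and 3 fell in females, with medians of 0.2 and 0.47. Cd151, an integrin partner, rose by 0.85 ± 0.10 in males and 0.47 ± 0.09 in females, and Tspan7, a membrane protein of islet cells, rose by 0.57 ± 0.12 and 0.88 ± 0.11. Tspan2 rose in females (0.61 ± 0.08) and had a log2 fold change of 0.06 ± 0.09 in males, a difference of -0.55 ± 0.12 (edgeR adjusted p 0.0179). The male value was 0.28 and passed when libraries were scaled by their totals (edgeR adjusted p 0.0352). Igsf8, an immunoglobulin-superfamily partner of Cd81, fell in both sexes (-0.53 in males, edgeR adjusted p 0.00196, and -0.65 in females, edgeR adjusted p 0.000178). Ptgfrn, another partner on the list, went the other way. It rose in males (1.37 ± 0.23, edgeR adjusted p 0.000266) and had 0.50 ± 0.20 in females (edgeR adjusted p 0.088).

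The upstream sequences of Cd81 and Mycl are shown because both rose in both sexes and both have an entry in the RefSeq promoter table (GRCm38.p6), which held 4 of the 9 genes, Neurog3 and Sox4 being the others. Each is the 250 bases before the start site, 5′ to 3′ on the gene's strand, at chr7:143052500-143052749 (plus) for Cd81 and chr4:122995681-122995930 (plus) for Mycl. These start sites are RefSeq's and lie downstream of the GENCODE gene starts given here, so that the Mycl window falls inside the printed gene span and the Cd81 window runs just past its start. Capitals mark matches on either strand to 5 motifs, which were the MafA half-site TGCTGA, the Myc-type E-box CACGTG, the Hes-type N-box CACNAG, the GC box GGGCGG and the TATA box TATAAA.
Cd81: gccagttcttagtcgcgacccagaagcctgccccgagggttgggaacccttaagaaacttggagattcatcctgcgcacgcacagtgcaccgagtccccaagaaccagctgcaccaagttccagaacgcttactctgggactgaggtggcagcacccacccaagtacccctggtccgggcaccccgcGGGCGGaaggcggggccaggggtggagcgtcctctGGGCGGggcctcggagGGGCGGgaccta
Mycl: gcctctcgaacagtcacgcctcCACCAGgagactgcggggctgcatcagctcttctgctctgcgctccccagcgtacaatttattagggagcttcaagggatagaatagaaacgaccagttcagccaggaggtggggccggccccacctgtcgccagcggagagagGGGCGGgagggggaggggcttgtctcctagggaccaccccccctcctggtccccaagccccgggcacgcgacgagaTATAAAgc
Cd81 held 3 GC boxes, beginning 63, 28 and 12 bases before the start, and Mycl held 1 GC box at 84, 1 N-box at 228 and 1 TATA box at 8. Among all 32851 windows of this length, 32.7% held a GC box, 36.7% an N-box and 12.4% a TATA box. Neither window held TGCTGA, found in 16.1% of all windows, or CACGTG, found in 6.02%. These are letter matches, not shown binding sites.

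Of Mycl and Myc, paralogous transcription factors of growth that bind DNA with Max, Mycl rose in both sexes and Myc passed in neither. Mycl (ENSMUSG00000028654, GRCm38 chromosome 4, 122995652 to 123002485, plus strand) was at 2.45, 2.41, 1.8 and 1.81 CPM in male S64F/+ and at 1.33, 1.13, 1.3 and 1.06 CPM in male WT libraries, with ranges apart (log2 fold change 0.82 ± 0.23, edgeR adjusted p 0.0131). In females it was at 1.79, 1.54, 2.16, 1.23 and 1.59 CPM in S64F/+ and at 0.702, 1.05, 0.903, 1.42 and 0.945 CPM in WT libraries, where the ranges overlapped by a single library on each side (0.73 ± 0.21, edgeR adjusted p 0.0174). The female call was lost without female WT 1 (edgeR adjusted p 0.0534) and in a fit of the female libraries alone (edgeR adjusted p 0.0598). The difference between the sexes was 0.09, with a 95% interval of -0.56 to 0.74.

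Myc (ENSMUSG00000022346, GRCm38 chromosome 15, 61985391 to 61990374, plus strand) was at 17.3, 11.7, 11.3 and 13.8 CPM in male S64F/+ and at 10.3, 12.4, 4.72 and 6.95 CPM in male WT libraries, and the groups overlapped through male WT 2. Its male log2 fold change of 0.66 ± 0.28 did not pass (edgeR adjusted p 0.0974), and it passed without male WT 2 (0.90, edgeR adjusted p 0.0312) and with library-size scaling (0.86, edgeR adjusted p 0.0237). In females Myc averaged 13.4 ± 3.12 CPM in S64F/+ and 13.7 ± 4.2 CPM in WT islets (log2 fold change -0.03 ± 0.25, edgeR adjusted p 0.954). Male WT islets, at 8.6 ± 3.43 CPM, had the lowest mean of the 4 groups, though not separably from female WT (log2 difference -0.66 ± 0.27, edgeR adjusted p 0.207).

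Of 12 partners in the MYC network, none rose and 3 fell in each sex. Mlxipl, the glucose-responsive factor ChREBP, averaged 125 ± 20.5 CPM in male S64F/+ and 368 ± 98.2 CPM in male WT islets, and 144 ± 10.7 CPM in female S64F/+ and 560 ± 57.3 CPM in female WT islets (log2 fold changes -1.56 ± 0.16 and -1.96 ± 0.15, edgeR adjusted p 1.77e-06 and 7.61e-08). Its relative Mlxip fell in females (-0.60 ± 0.09), as did Mga (-0.49 ± 0.14, edgeR adjusted p 0.02), a call lost without female S64F/+ 2, female S64F/+ 3 or female WT 1 (edgeR adjusted p at most 0.0591 in these), with library-size scaling and in a fit of the female libraries alone. Of 20 genes commonly listed as MYC targets, none rose and 6 fell in males, and 4 rose and 2 fell in females, with medians of -0.12 and 0.11. With library-size scaling 2 of them were called in males. Cdk4, a kinase of cell-cycle entry, fell in males (-0.50 ± 0.09), and the nucleolar genes Npm1 (0.57 ± 0.12) and Fbl (0.39 ± 0.08) rose in females.

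Gata6, a zinc finger factor needed with Gata4 for pancreas formation in mice, rose in both sexes. Gata6 (ENSMUSG00000005836) was at 35.8, 26.8, 31.7 and 30.2 CPM in male S64F/+ and at 12.9, 18.3, 18 and 18.3 CPM in male WT libraries. In females it was at 29.2, 30.3, 23.7, 35.8 and 37.9 CPM in S64F/+ and at 16.7, 22.6, 21, 20.6 and 16.6 CPM in WT libraries. The ranges were apart in both sexes, in females by the narrow step between 23.7 and 22.6 CPM. The log2 fold change was 0.88 ± 0.15 in males (edgeR adjusted p 0.000255) and 0.69 ± 0.13 in females (edgeR adjusted p 0.00108), with a difference of 0.19 between the sexes (95% interval -0.23 to 0.60). Of 4 tested GATA factors and cofactors, only Gata2 was called, higher in males (0.72 ± 0.24, edgeR adjusted p 0.0319), a call that leaving out male WT 4, male WT 2 or male S64F/+ 1, 2 or 3 ended (edgeR adjusted p at most 0.113). An antisense gene that overlaps the start of Gata6 by 504 bases, 1010001N08Rik, rose in the same libraries (0.97 in males, edgeR adjusted p 0.00069, and 0.48 in females, edgeR adjusted p 0.0394), and without a stated strand setting reads in the overlap cannot be told apart.

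**Figure D3:**
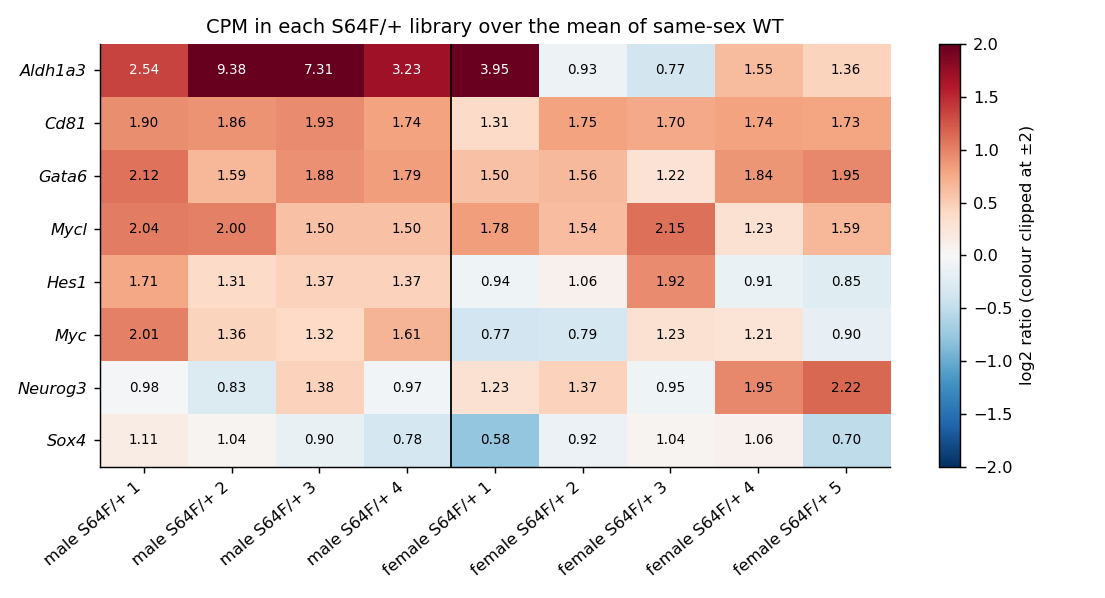
CPM of each gene in each S64F/+ library divided by the mean of the WT libraries of the same sex, as a ratio (numbers) and on a log2 colour scale. Cd81 lies between 1.31 and 1.93 and Gata6 between 1.22 and 2.12 in all 9 S64F/+ libraries, whereas Aldh1a3 runs from 0.773 to 9.38.

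Hes1, the repressor through which Notch signalling holds Neurog3 off, rose in males by a small step. Hes1 (ENSMUSG00000022528, GRCm38 chromosome 16, 30064384 to 30067796, plus strand) was at 18.8, 14.5, 15.1 and 15.1 CPM in male S64F/+ and at 10.4, 11, 12.1 and 10.6 CPM in male WT libraries, with ranges apart. The log2 fold change was 0.52 ± 0.19 and only just passed (edgeR adjusted p 0.045). With single libraries omitted in turn, 13 of the 18 refits no longer called it, among them every refit lacking a male library or a female WT one, and the adjusted p in edgeR was highest (0.138) when male S64F/+ 1 was omitted. The estimate then stayed between 0.43 and 0.57. In females Hes1 was at 11.7, 13.1, 23.8, 11.3 and 10.5 CPM in S64F/+ and at 13.5, 12.2, 12.5, 12.1 and 11.7 CPM in WT libraries, and 4 of the 5 S64F/+ libraries lay within or below the WT range. The female log2 fold change of 0.18 ± 0.17 (edgeR adjusted p 0.499) was -0.09 without female S64F/+ 3. Without that library the male minus female difference passed (0.62, edgeR adjusted p 0.0198, against 0.35 and 0.417 with all libraries).

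Other genes of the Notch pathway differed in their calls between the sexes. Of 27 tested genes of the pathway, 8 rose and 2 fell in males, and 1 rose and 5 fell in females, with medians of 0.15 and -0.12. The difference of the effects passed for 6 of them, all more positive in males, against 2.87% of all genes called in that direction and 1.6% in the other. Notch2, a receptor, averaged 20.1 ± 5.01 CPM in male S64F/+ and 6.02 ± 0.678 CPM in male WT islets (log2 fold change 1.74 ± 0.23), and 10.1 ± 2.47 CPM in female S64F/+ and 7.59 ± 2.34 CPM in female WT islets (0.42 ± 0.20, edgeR adjusted p 0.15), a difference of 1.33 ± 0.30 (edgeR adjusted p 0.0226). Dtx4, a ubiquitin ligase of the pathway, rose in males (1.23 ± 0.19) and had 0.10 ± 0.17 in females, a difference of 1.13 ± 0.25 (edgeR adjusted p 0.0215). Dll4, a ligand prominent on endothelium, fell in females (-0.71 ± 0.12) and had -0.07 ± 0.13 in males, a difference of 0.64 ± 0.17 (edgeR adjusted p 0.0438). Among the Hes and Hey relatives of Hes1, Heyl rose in males (1.26 ± 0.32) and Hes6, which opposes Hes1, fell in males (-0.65 ± 0.14).

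Neurog3, the factor that commits progenitors to the endocrine fate, did not pass in either sex. Neurog3 (ENSMUSG00000044312, GRCm38 chromosome 10, 62133090 to 62134763, plus strand) was at 6.99, 5.93, 9.87 and 6.92 CPM in male S64F/+ and at 7.68, 6.3, 8.81 and 5.77 CPM in male WT libraries, a log2 fold change of 0.06 ± 0.27 with a 95% interval of -0.51 to 0.63. In females it was at 6.46, 7.23, 4.99, 10.3 and 11.7 CPM in S64F/+ and at 4.06, 7.35, 3.12, 6.3 and 5.53 CPM in WT libraries, with 2 S64F/+ libraries above all WT ones. The female log2 fold change was 0.63 ± 0.24 (edgeR adjusted p 0.0746), and it passed with the replicate number as a block (0.62, edgeR adjusted p 0.0124) and in DESeq2 (adjusted p 0.0414). It also passed without female S64F/+ 3 (0.76, edgeR adjusted p 0.0348) and without female WT 2 (0.78). Neurog3 lies whole within the span of Fam241b on the other strand, which averaged 19 CPM and had log2 fold changes of -0.11 in males and 0.09 in females. As the strand setting is not stated, reads of the 2 genes in this span cannot be told apart.

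Pax4, a repressor needed for beta and delta cells in mouse development, was near the limit of detection. Pax4 (ENSMUSG00000029706, GRCm38 chromosome 6, 28442334 to 28449353, minus strand) had 0 counts in all 4 male S64F/+ and all 5 female S64F/+ libraries, 3 counts over the male WT group and 2 over the female WT group. The 0 counts allow up to 0.0156 CPM over the male and 0.015 CPM over the female S64F/+ group (3 counts, counting error only), and no fold is given since the WT groups were at 3 counts or fewer as well.

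Sox4, an HMG-box factor of endocrine progenitors that is widely expressed, did not pass. Sox4 (ENSMUSG00000076431, GRCm38 chromosome 13, 28948919 to 28953713, minus strand) was at 59.4, 55.5, 47.9 and 41.8 CPM in male S64F/+ and at 47.5, 48.8, 41.8 and 75.2 CPM in male WT libraries (log2 fold change -0.06 ± 0.23, 95% interval -0.55 to 0.43). In females it was at 37, 58.6, 66.2, 67.7 and 44.6 CPM in S64F/+ and at 64.5, 47, 86.6, 71.8 and 47.8 CPM in WT libraries (-0.21 ± 0.21, 95% interval -0.65 to 0.22). The groups overlapped in both sexes, and Sox4 spread more within a group than it differed between groups. Gm26735, on the other strand, overlaps Sox4 by 2753 bases and averaged 0.186 CPM. With no stated strand setting, reads there cannot be assigned to 1 of the genes.

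Genes of the wider endocrine progenitor programme were called in both directions. Of 24 tested, 3 rose and 9 fell in each sex, with medians of -0.2 and -0.19. Nkx2-2, a homeodomain factor of beta-cell fate, fell by 0.64 ± 0.08 in males and 0.46 ± 0.07 in females, and Insm1, a zinc finger factor of endocrine differentiation, fell by 0.60 ± 0.11 and 0.64 ± 0.10. Gadd45a, a stress and DNA-damage response gene that Neurog3 induces, rose by 0.58 ± 0.14 and 1.03 ± 0.13. Nkx2-2 and Insm1 also act in mature islet cells.

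Of 13 tested other markers of immature or dedifferentiated beta cells, 7 rose and none fell in males and 6 rose and none fell in females, with medians of 0.7 and 0.66. Sox9, a progenitor factor that duct cells keep, averaged 14.5 ± 5.53 CPM in male S64F/+ and 3.56 ± 0.363 CPM in male WT islets (log2 fold change 2.03 ± 0.24), and 8.86 ± 1.57 CPM in female S64F/+ and 4.59 ± 1.34 CPM in female WT islets (0.95 ± 0.21). Npy, a neuropeptide of immature beta cells, rose by 1.89 ± 0.40 in males and 2.68 ± 0.36 in females, and the surface protein gene Cd24a by 0.70 ± 0.14 and 0.78 ± 0.13. Of 17 mature beta-cell genes, none rose, 14 fell in males and 13 fell in females, with medians of -0.75 and -0.51. The beta-cell factor Mnx1 fell by 1.41 ± 0.14 in males and 1.56 ± 0.13 in females. Ucn3, a peptide of mature beta cells, fell by 1.5 ± 0.11 in males and 0.54 ± 0.10 in females, a difference of -0.96 ± 0.15 (edgeR adjusted p 0.00391).

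Across the 8 tested genes, no male minus female difference passed in edgeR, where 4.47% of all genes were called (2.87% higher and 1.6% lower). That of Aldh1a3 had an unadjusted p of 0.0348, the only member under 0.05, and the 8 differences had a median of 0.18. DESeq2 also called 0. Between male and female WT islets no member was called either, against 2.36% of all genes (1.73% higher and 0.637% lower), and Myc had an unadjusted p of 0.0255.

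Markers of other islet cells moved with genotype in the same libraries, and their part in the results above was not tested. Of 10 stellate-cell and fibroblast markers 9 rose in males and none in females, and they summed to between 1570 and 2380 CPM in male S64F/+, 229 and 551 in male WT, 267 and 1050 in female S64F/+ and 299 and 850 CPM in female WT libraries. Of 8 endothelial markers 5 rose and 1 fell in males and 1 fell in females, with sums of 820 to 956, 473 to 661, 540 to 756 and 534 to 756 CPM in the same order of groups. Of 10 ductal markers, which include Sox9, 5 rose in males and 3 in females, with sums of 766 to 909, 538 to 572, 598 to 760 and 541 to 618 CPM. Of 9 macrophage markers 7 rose and 1 fell in males and 6 rose in females, with sums of 131 to 169, 89.7 to 131, 104 to 182 and 81.3 to 117 CPM.

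Endocrine and other markers gave a different split. Of 7 alpha-cell markers 1 rose in males and 7 in females, with sums of 36000 to 60200 CPM in male S64F/+, 34500 to 43500 in male WT, 59800 to 83000 in female S64F/+ and 34100 to 42400 CPM in female WT libraries. Of 5 delta-cell markers 3 rose and 1 fell in males and 4 rose and 1 fell in females. Of 8 Schwann-cell markers 4 rose in males and 1 in females, with sums of 73.9 to 85.5 CPM in male S64F/+, 33 to 37.6 in male WT, 50.4 to 104 in female S64F/+ and 30.7 to 46.3 CPM in female WT libraries, which were apart by genotype in both sexes. Of 3 PP-cell markers 1 rose in males and 3 in females. Of 5 mesothelial markers 1 rose and 1 fell in males and 1 fell in females. Their sums were 35 to 88.4, 158 to 220, 27.3 to 75.2 and 93.2 to 231 CPM in the same order of groups. These sums were lower in S64F/+ and apart by genotype in both sexes, but the median log2 fold change of the list was 0.95 in males and 0.83 in females. The gene that fell was Msln (-2.75 ± 0.40 in males and -2.18 ± 0.35 in females). The one that rose in males was Krt19, which is also on the ductal list. Of 8 lymphocyte markers, 4 of them tested, 1 rose and 1 fell in each sex. The sums of all 8 were 1.61 to 3.87, 3.15 to 7.98, 2.78 to 4.37 and 5.21 to 10.8 CPM, apart only in females. None of 10 acinar markers was called in either sex, with sums of 4160 to 17500, 2790 to 27000, 15500 to 36800 and 11200 to 42900 CPM. No marker of these lists was at 0 counts in a whole group.

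**Figure D4:**
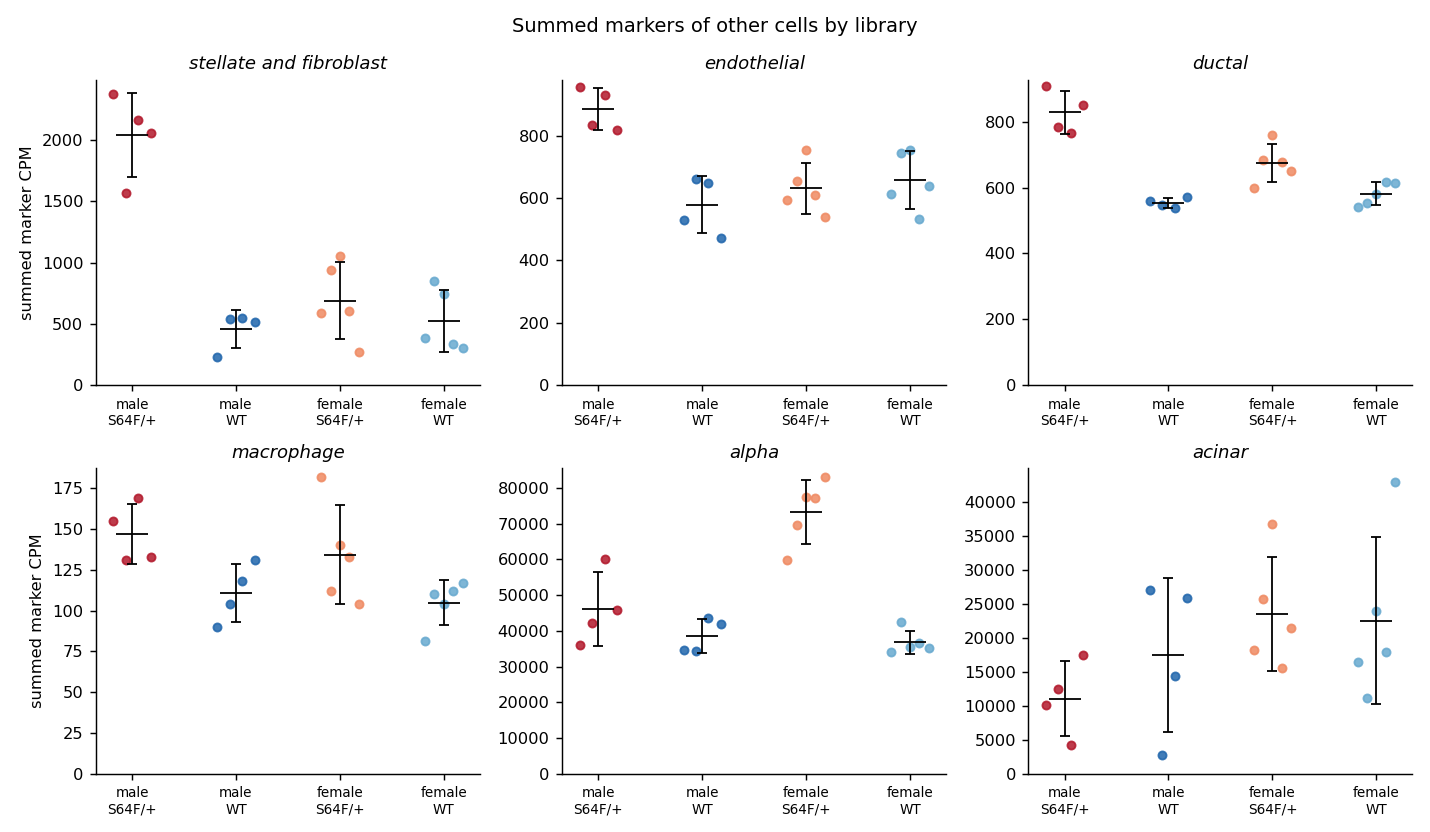
Summed CPM of markers of 6 other cell types in each library (points), with the group mean and SD (black), for male S64F/+, male WT, female S64F/+ and female WT islets. The stellate and fibroblast sum is at least 1570 CPM in every male S64F/+ library and at most 1050 CPM in every other library.

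Within the S64F/+ groups, the marker sums ranked the libraries differently from one list to another. Male S64F/+ 2, with the highest Aldh1a3 at 12.2 CPM, had the highest Schwann sum of its group, 85.5 CPM. Its stellate and fibroblast and macrophage sums, 1570 and 131 CPM, were the lowest. So were its delta-cell, mesothelial and lymphocyte sums, 3630, 35 and 1.61 CPM. Male S64F/+ 1, with the lowest Aldh1a3 at 3.31 CPM, had the highest stellate and fibroblast sum, 2380 CPM. Its endothelial, ductal and mesothelial sums, 956, 909 and 88.4 CPM, were also the highest of that group. Its alpha-cell and mature beta-cell sums, 36000 and 129000 CPM, were the lowest. Female S64F/+ 1, with the highest female Aldh1a3, had the lowest Cd81 of its group, 86.7 CPM. Its ductal and Schwann sums, 598 and 50.4 CPM, were the lowest. So were its mature beta-cell, alpha-cell, delta-cell and mesothelial sums, 134000, 59800, 6070 and 27.3 CPM. Its macrophage and lymphocyte sums, 182 and 4.37 CPM, were the highest. Female S64F/+ 3, with the highest Hes1, had the highest stellate and fibroblast, endothelial, ductal and Schwann sums of its group, 1050, 756, 760 and 104 CPM. Its acinar, PP-cell, mesothelial and mature beta-cell sums were also the highest, 36800, 16500, 75.2 and 246000 CPM. Its macrophage, alpha-cell and delta-cell sums, 140, 77400 and 7140 CPM, were not, and its lymphocyte sum, 2.78 CPM, was the lowest.

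The genes with the most similar profile over the 18 libraries, by the mean absolute difference of centred log2 CPM, differed between the called genes. Those nearest to Aldh1a3 were Aldh1a2 (0.625), the prostacyclin receptor gene Ptgir (0.628) and the urokinase receptor gene Plaur (0.63). Nearest to Cd81 were Ramp2 (0.105), Serping1 (0.111) and Irgm2 (0.123), which encode a receptor accessory protein, a complement inhibitor and an interferon-inducible GTPase. Nearest to Gata6 were Ambp (0.134), Ptprk (0.138) and App (0.139), and nearest to Mycl were Nectin2 (0.206), Lgmn (0.207) and Sdc2 (0.207). Nearest to Hes1 were Egfl7 (0.113), Eps15 (0.123) and Rasip1 (0.128), of which Egfl7 and Rasip1 are known from endothelial cells.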

How the data were processed

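RNA-seq was made from isolated whole mouse islets in 4 groups by sex and MafA genotype. The authors deposited raw counts per gene, and FPKM values, which for each of the 33562 genes above 0 implied 1 gene length in every library (within 1 base). Per the submitters' processing notes, the build was GRCm38 and the tools included DESeq2, featureCounts and STAR, with FastQC and MultiQC. For versions, annotation and strand, the sources used here give nothing. FPKM served only to compare levels between genes.

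The deposited counts were tested with edgeR 4.0.16 under R 4.3.3. The 99 listed features that are not mouse genes, all at 0 counts, were left out. Genes were kept by filterByExpr (minimum count 10, minimum total 15), scaled by TMM, and fitted with 1 coefficient per group over all 18 libraries in a robust quasi-likelihood model, two-sided, with Benjamini-Hochberg adjustment within each contrast. Simulated counts with known changes were used to check the fit. Alternatives were other scalings, filters and samples, DESeq2 1.42.0, a replicate block, and leaving out each library. Deviations of same-numbered S64F/+ and WT libraries correlated at 0.11 to 0.418 in the 5 female pairs and at -0.249 to 0.189 in the 4 male pairs. The labels name no pairs, and the main fit used none, so its p-values ignore any pairing. The replicate block, an alternative only, used the numbers in both sexes. Chi-square per degree of freedom between replicates was at least 21.7, so no library repeated another of its group.

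The members and lists were chosen with earlier results of these data known. All 9 members and Mafa were named, with up to 3 called genes per pathway list (smallest p), and for each called member the 3 nearest genes averaging 1 CPM or more, passing over provisional symbols. Others were chosen after their values were seen: Aldh1a1, Dhrs3, Igsf8, Ptgfrn, Heyl, Hes6, Msln, Krt19 and the overlapping genes. Gene positions came from GENCODE M21 on GRCm38.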

Additional observations from a re-analysis of the deposited data

Results flagged for a closer look

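Of 36 sets of libraries (9 genes, Mafa included and Pax4 left out, in 4 groups), 6 held a library far from the others by Dixon's test, where chance flags about 1 in 20 sets. Female S64F/+ 1 stood high for Aldh1a3 (3.19 CPM) and low for Cd81 (86.7 CPM). Female WT 1 was low for Cd81 (50.7 CPM), and male WT 1 was low for Gata6 (12.9 CPM). Male S64F/+ 1 was high for Hes1 (18.8 CPM), and so was female S64F/+ 3 (23.8 CPM).

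The genotype effect differed between the sexes, by the male minus female contrast in edgeR, for 9 genes named above, none of them a member of the set of 9. The log2 difference was 1.54 for Plaur, 1.33 for Notch2, 1.13 for Dtx4, and 0.64 for both Rara and Dll4. It was -0.62 for Rbp4, -0.48 for Fbl (edgeR adjusted p 0.0406), -0.55 for Tspan2 and -0.96 for Ucn3.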

How the results depend on the processing

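The number of the 8 tested genes called was 5 in males and ranged from 4 to 6 over all alternatives, and it was 3 in females, with a range of 2 to 4. Leaving out 1 library gave 0 to 1 called male minus female differences (Aldh1a3 without female S64F/+ 1, Hes1 without female S64F/+ 3) and 1 to 2 genes called between male and female S64F/+ islets. The calls of Aldh1a3, Cd81, Gata6 and Mycl in males and of Cd81 and Gata6 in females held in all 18 such fits and all 8 other settings. Library-size scaling moved the median of all genes in males to 0.19, from -0.03, so that male values rise with it, and it left 1 MYC partner, 2 MYC targets and 2 GATA genes called in males. Under it the log2 fold change turned to 0.18 for Sox4, 0.14 for Dll4, 0.029 for Mlxip and 0.14 for Fbl in males. The difference of male and female S64F/+ islets turned to 0.053 for Neurog3, 0.10 for Sox4 and 0.17 for Gata6, and for Gata6 also to 0.0033 in DESeq2 and 0.0028 with its size factors. None of these was called. With the replicate block, which used the numbers in both sexes, Neurog3 in females (adjusted p 0.0124) and Myc in males (0.72, adjusted p 0.0147) passed. No other member's call changed with it.

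Uncalled values changed sign when 1 library was left out, over ranges of -0.11 to 0.18 for Neurog3, -0.16 to 0.15 for Sox4, -0.15 to 0.022 for Dll4, -0.0056 to 0.072 for Mga, -0.054 to 0.059 for Npm1 and -0.0039 to 0.098 for Tspan2 in males. In females the ranges were -0.092 to 0.27 for Hes1, -0.14 to 0.10 for Myc, -0.031 to 0.21 for Dtx4 and -0.15 to 0.15 for Gata2. They were -0.067 to 0.20 for the Mycl difference between the sexes, -0.30 to 0.034 for Neurog3, -0.12 to 0.11 for Myc and -0.098 to 0.064 for Gata6 between S64F/+ islets, and -0.11 to 0.082 for Cd81 between WT islets. The cause of these changes was not tested. Mycl and Aldh1a3 had few counts, 138 to 413 and 157 to 1268 per group, which limits the precision of their values.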
